A study of Mus musculus with 28 samples.

Results

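Aminoacyl-tRNA synthetases were followed in the livers of mice with non-alcoholic steatohepatitis, a liver disease of fat storage, inflammation and scarring. The set holds 36 of the 20416 genes in each table, chosen by a list of symbols: 20 enzymes that charge transfer RNA (tRNA) in the cytosol and 16 that do so in mitochondria, whose symbols end in 2. All 36 had a line in the 3 tables, and all 36 passed the filter on low values, which kept genes above the 25th percentile of mean level. The data are messenger RNA levels in liver from male C57BL/6 mice, read from 28 libraries. In the diet study, 4 liver samples came from a methionine- and choline-deficient diet (MCD) and 4 from a matched low-fat control diet (CD). Its duration is 4 weeks in the sample titles and 5 weeks in another label, so the groups are called MCD and CD. In the second study, streptozotocin, a toxin of the insulin-making beta cells, was given at postnatal day 2 and a high-fat diet was fed from week 4 (the STAM model). Liver samples, 5 of STAM and 5 of control mice (Ctrl, on a control diet), were collected at 4 weeks of age, and the same numbers at 10 weeks. How long the 4-week STAM livers had been on the high-fat diet is not given in the labels, since the diet starts in the week of their collection. No label says that each sample was its own mouse, so p-values measure the spread between samples, which may be technical.

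Aminoacyl-tRNA synthetases join each amino acid to the tRNA that carries its codon, the step that supplies the ribosome. Nearly every cytosolic enzyme has a separate mitochondrial counterpart encoded by another nuclear gene; Gars and Kars are known exceptions whose genes serve both compartments, and Eprs charges both glutamate and proline. Several cytosolic enzymes sit in a large multisynthetase complex held together by the scaffold proteins Aimp1, Aimp2 and Eef1e1. When amino acids run short or proteins misfold, kinases such as Gcn2 (Eif2ak4) phosphorylate the initiation factor eIF2, the factor ATF4 is translated, and ATF4 switches on genes for amino acid synthesis and uptake, including many cytosolic synthetases. The mitochondrial enzymes are not commonly listed among the targets of ATF4.

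Because many cytosolic synthetases are described as ATF4 targets, the letters of the core of the ATF4 binding motif, TGATGNAA or its reverse complement TTNCATCA, were searched in promoter windows of RefSeq (GRCm38.p6) that run from 250 bases before to 50 bases after each gene start. Of 32851 windows of this length, 3.97% held the motif. RefSeq windows were at hand for 26 of the 36 enzymes, which leaves out Cars, Hars, Hars2, Lars, Mars, Nars, Pars2, Rars, Vars and Wars. The motif was in 5 of the 12 cytosolic genes with a window (Aars, Gars, Iars, Tars and Yars) and in 0 of the 14 mitochondrial ones. A match describes letters in a window and is neither a bound site nor a cause. No match says only that these letters are not in that window. For each of these enzymes 1 match is printed 5′ to 3′ on the strand of the gene with the motif in capitals. Beside them stands the match of Asns, the asparagine synthetase gene, a well-described ATF4 target. Asns was the only 1 of 6 ATF4 targets of amino acid synthesis and one-carbon metabolism with a window that held the motif. It was in 4 of 16 eIF2 kinases and ATF4 pathway regulators and in 2 of 6 amino acid carriers, against 4.51% of all genes with a window. Aars held another match, starting upstream at position -112, which is not printed. Positions count from the gene start of the RefSeq window, whose first base is 1, with negative positions before it. For Yars the deposited gene start, chr4:129189795, lies upstream of the start of its RefSeq window. Its match is therefore more than 50 bases after the deposited start. The matches are:
Gars, chr6:55037960-55037989, plus strand, match starting at position -30: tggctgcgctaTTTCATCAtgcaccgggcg
Tars, chr15:11399655-11399684, minus strand, match starting at position -15: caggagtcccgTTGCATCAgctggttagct
Aars, chr8:111033840-111033869, plus strand, match starting at position 10: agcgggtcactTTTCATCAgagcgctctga
Iars, chr13:49682126-49682155, plus strand, match starting at position 8: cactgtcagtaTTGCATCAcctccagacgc
Yars, chr4:129189895-129189924, plus strand, match starting at position 4: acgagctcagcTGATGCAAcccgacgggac
Asns, chr6:7693214-7693243, minus strand, match starting at position -23: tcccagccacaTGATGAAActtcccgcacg

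The whole upstream window of Gars, the enzyme with the largest called rise in these data, is shown with the same match in capitals, 250 bases at chr6:55037751-55038000 on the plus strand:
Gars: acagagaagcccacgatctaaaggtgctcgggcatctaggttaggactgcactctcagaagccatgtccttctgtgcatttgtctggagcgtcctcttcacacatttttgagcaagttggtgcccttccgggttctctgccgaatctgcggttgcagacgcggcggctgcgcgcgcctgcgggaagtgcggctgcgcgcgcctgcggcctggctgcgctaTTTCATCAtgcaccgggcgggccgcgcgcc

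Levels are given as log2 CPM (CPM being reads of a gene scaled to a common effective library size, which the authors set within each table). Libraries held 16.2 to 25.9 M reads, and the lowest number of reads of any of the 36 genes in a library was 42, for Pars2. Only per kilobase of counted length can genes be compared with each other. On that scale the cytosolic enzymes had a median of 17 CPM per kilobase in CD livers and the mitochondrial ones 7.32. In CD livers the highest geometric means were those of Tars (71.4 CPM per kilobase), Nars (58.1) and Aars (57.1), the enzymes for threonine, asparagine and alanine, and the lowest those of Mars2 (1.31) and Pars2 (1.65). Nars and Aars differed by less than their spread. Iars2 (24.4) and Lars2 (24.1) were the mitochondrial enzymes with the highest levels and did not differ beyond their spread either. In MCD livers Gars took place 5 of the 36 at 39.1 CPM per kilobase, against 16.8 and a lower place in CD livers, while Tars moved from place 1 to place 4 at 41.8.

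A gene was called when limma gave a Benjamini-Hochberg adjusted p under 0.05 over all genes tested (15312 in each table, 15022 and 14986 for the differences between ages and between models), and fold changes are differences of mean log2 CPM. The authors' scaling matters for directions in these data. Scaling by total reads instead raised the median fold change of all genes by 0.42 for MCD, 0.08 for STAM at 4 weeks and 0.29 for STAM at 10 weeks (log2), and quantile normalization moved it by -0.07, -0.03 and -0.08. With total-read scaling 86.1% of the genes called for MCD were higher, against 52.9% with the authors' scaling. For STAM the shares were 83.7% against 66.6% at 4 weeks and 88.1% against 53.0% at 10 weeks. For the difference between the STAM effects at 10 and 4 weeks they were 84.3% against 44.3%, and for that between the MCD effect and the STAM effect at 10 weeks 62.5% against 46.2%. Of the 15312 genes tested, total reads called 7588 higher and 1222 lower for MCD and 7019 and 953 for STAM at 10 weeks. These are the all-gene counts to set beside total-read counts of the lists below. Among control livers, Ctrl replicate 1 at each age stood furthest apart from its group. The chi-square per degree of freedom between recovered reads was 72.8 to 79.7 for Ctrl replicate 1 at 4 weeks against each of the other 4 and 12.7 to 28.2 among those 4, and 67.3 to 137 for Ctrl replicate 1 at 10 weeks and 17.5 to 43.6 among its other 4. CD replicate 4 was also further from the other CD livers (39.9 to 70.5) than those were from each other (28.2 to 32.8). Calls of the 36 enzymes that change without Ctrl replicate 1 of either age are given beside the results. A call is described as holding under all 3 scalings where the authors' scaling, total reads and quantile normalization gave the same call and direction. Because total reads shifted fold changes upward in all 3 comparisons, rises pass that scaling more easily than falls. Holding under total reads is thus a weak check of a rise, and a fall can be lost there by the shift alone.

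The first question is what a diet without methionine and choline does to the genes that charge tRNA. In MCD livers 10 of the 20 cytosolic enzymes rose, 2 fell and 8 were not called, where 22.6% of all genes tested rose and 20.1% fell. The 10 that rose (Eprs, Gars, Hars, Iars, Lars, Nars, Rars, Sars, Vars and Yars) were called higher under all 3 scalings, and of the 2 that fell Tars was called lower under all 3, while Qars kept its sign but was not called with total reads. The median fold change of the 20 enzymes was 0.25 (log2), against 0.07 for all genes tested. Gars, the glycine enzyme, had the largest change: it stood at 5.36, 5.27, 5.32 and 5.36 log2 CPM in the CD livers and at 6.52, 6.77, 6.25 and 6.64 in the MCD livers. Every MCD liver lay above every CD liver, a 2.33-fold rise (log2 fold change 1.22, SE 0.111, limma adjusted p = 3.59e-06, n = 4 and 4). Sars, the serine enzyme, read 5.84, 5.74, 5.91 and 5.74 in CD and 6.59, 6.79, 6.59 and 7.02 in MCD (log2 fold change 0.94, SE 0.109, limma adjusted p = 2.59e-05). Its groups were also fully apart, and the rise was 1.92-fold. Eprs, the enzyme for glutamate and proline, read 7.37, 7.32, 7.38 and 7.39 in CD and 8.23, 8.46, 8.05 and 8.11 in MCD, a 1.8-fold rise (log2 fold change 0.85, SE 0.103, limma adjusted p = 3.63e-05). The CD values of Eprs lay close together and all MCD values were higher.

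Lars, the leucine enzyme, read 5.11, 4.99, 4.83 and 4.88 log2 CPM in CD livers and 5.76, 5.89, 5.53 and 5.69 in MCD livers, which do not overlap (log2 fold change 0.77, SE 0.106, limma adjusted p = 0.000106). Vars, the valine enzyme, read 4.02, 3.79, 3.88 and 3.7 in CD and 4.21, 4.57, 4.26 and 4.97 in MCD, with the fourth MCD liver far above the other 3 but all 4 above CD (log2 fold change 0.65, SE 0.161, limma adjusted p = 0.00565). Iars, the isoleucine enzyme, read 6.03, 5.68, 5.87 and 5.71 in CD and 6.53, 6.57, 6.16 and 6.36 in MCD, again without overlap (log2 fold change 0.58, SE 0.117, limma adjusted p = 0.00148). So all 3 enzymes for the branched-chain amino acids were among those that rose. Smaller rises were those of Rars for arginine (log2 fold change 0.46), Yars for tyrosine (0.42), Hars for histidine (0.33) and Nars for asparagine (0.28), with limma adjusted p of 0.00434, 0.00389, 0.0299 and 0.0254. The calls of Hars and Nars depended on single livers: Hars was not called without CD replicates 1, 3 or 4 or MCD replicates 2 or 4 (limma adjusted p 0.0503 to 0.0845), and Nars not without CD replicates 2 or 4 or MCD replicates 1 or 2 (0.0515 to 0.0757). The groups of Hars overlapped, with CD replicate 2 at 5.34 above MCD replicate 3 at 5.30.

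Tars went the other way. The threonine enzyme, first in level among the 36 in CD livers, stood at 7.84, 7.49, 7.56 and 7.33 log2 CPM there and at 6.8, 6.86, 6.8 and 6.67 in MCD livers, all below CD and 1.71-fold lower (log2 fold change -0.77, SE 0.112, limma adjusted p = 0.000141). Qars, the glutamine enzyme, read 5.63, 5.89, 5.84 and 5.8 in CD and 4.97, 5.29, 5.23 and 5.11 in MCD, also without overlap and 1.56-fold lower (log2 fold change -0.64, SE 0.102, limma adjusted p = 0.000289); with total-read scaling it was at -0.22 and not called. Mars, the enzyme for methionine, the amino acid that the diet lacks, read 5.74, 5.55, 5.62 and 5.41 in CD and 5.47, 5.42, 5.28 and 5.43 in MCD and was not called (log2 fold change -0.18, SE 0.0981, limma adjusted p = 0.153, interval -0.39 to 0.03). The remaining uncalled enzymes were Aars (log2 fold change 0.23), Cars (0.18), Farsa (0.12), Kars (0.06), Dars (-0.02), Farsb (-0.13) and Wars (-0.14). Total-read scaling turned Dars and Farsb to called rises of 0.40 and 0.29 and also called Aars, Cars, Farsa and Kars higher, and Aars was called higher with quantile normalization too; Mars and Wars turned to 0.24 and 0.28 with total reads, not called. Without overlap, 11 cytosolic enzymes lay above CD and 3 below, where 20.9% of all genes tested were above and 19.2% below.

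**Figure D1:**
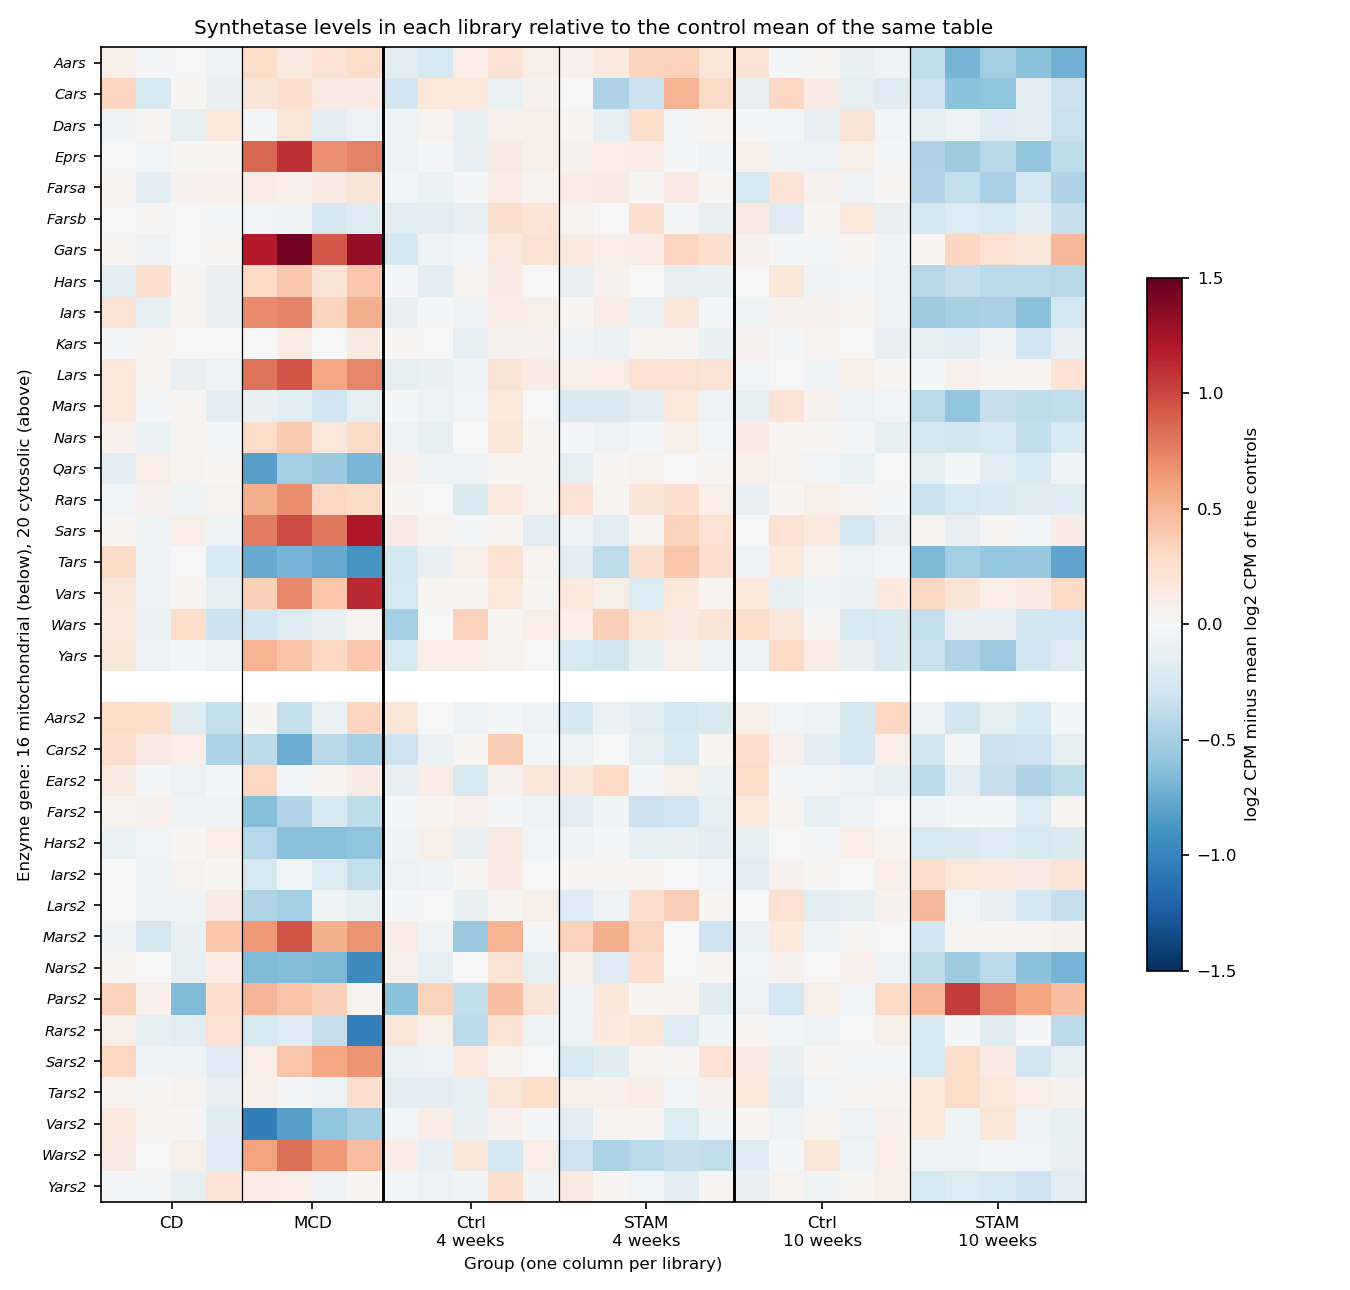
Each row is an enzyme gene and each column a library, grouped by diet or model and age; the colour is log2 CPM minus the mean log2 CPM of the control livers of the same table, red above and blue below. In MCD livers Gars, Sars, Eprs and Lars are red and Tars, Qars, Nars2 and Vars2 blue in all 4 columns, while in STAM livers at 10 weeks most cytosolic rows are blue and Gars and Pars2 are red.

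In MCD livers 2 of the 16 mitochondrial enzymes rose (Mars2 and Wars2), 5 fell (Cars2, Fars2, Hars2, Nars2 and Vars2) and 9 were not called, where 22.6% of all genes tested rose and 20.1% fell. With total reads 7 were called higher and 1 lower, where 86.1% of all called genes were higher. The authors' scaling gave a median fold change of -0.12 (log2) that was 0.30 with total-read scaling, where the all-gene median was 0.49. Calls that held under all 3 scalings were the fall of Nars2 and the rise of Wars2. Nars2, the asparagine enzyme of mitochondria, read 5.0, 4.98, 4.82 and 5.08 log2 CPM in CD and 4.31, 4.32, 4.29 and 4.01 in MCD, with no overlap and 1.67-fold lower (log2 fold change -0.74, SE 0.11, limma adjusted p = 0.000178). Wars2, the tryptophan enzyme, read 3.5, 3.38, 3.47 and 3.18 in CD and 3.99, 4.21, 4.03 and 3.85 in MCD, all above CD (log2 fold change 0.64, SE 0.126, limma adjusted p = 0.00136). Vars2, the valine enzyme, read 3.84, 3.73, 3.71 and 3.51 in CD and 2.66, 2.88, 3.1 and 3.2 in MCD, all below CD (log2 fold change -0.74, SE 0.147, limma adjusted p = 0.00147). With total reads Vars2 was at -0.31 and not called. Mars2, the methionine enzyme of mitochondria, read 1.85, 1.66, 1.8 and 2.33 in CD and 2.56, 2.86, 2.44 and 2.59 in MCD (log2 fold change 0.70, SE 0.182, limma adjusted p = 0.00773); all MCD livers were higher, and with quantile normalization the change was 0.45 and not called. Hars2 fell by 0.57, Cars2 by 0.52 and Fars2 by 0.43 on the log2 scale (limma adjusted p = 0.000421, 0.0244 and 0.00987), and none of these 3 was called with total reads. Cars2 overlapped between the groups and was not called without CD replicates 1, 2 or 3 or MCD replicate 2 (limma adjusted p 0.063 to 0.0728). Without overlap, 2 mitochondrial enzymes lay above CD and 5 below, where the shares of all genes tested were 20.9% and 19.2%.

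Set against each other within a library, cytosolic and mitochondrial enzymes need no scaling between libraries. The summed CPM of the 20 cytosolic enzymes was 3.15 to 3.48 times that of the 16 mitochondrial ones in CD livers and 4.26 to 5.20 times in MCD livers, which do not overlap. This ratio is a description and weighs abundant genes most. For 13 amino acids a cytosolic and a mitochondrial gene of matching symbol were set in pairs, which leaves out Farsa and Farsb with Fars2 and Eprs with Ears2 and Pars2. The difference of log2 CPM between the cytosolic and the mitochondrial one shifted upward without overlap in 9 pairs, downward in 3 and overlapped in 1. Of single genes tested 20.9% lay above and 19.2% below without overlap. How often pairs of other genes do so was not computed here or for STAM. The largest shift was that of the valine pair: Vars minus Vars2 was 0.15 ± 0.06 in CD and 1.54 ± 0.27 in MCD (SD, n = 4 each), a shift of 1.39. Leucine (Lars minus Lars2) moved from -1.59 ± 0.17 to -0.54 ± 0.37 and asparagine from 2.29 ± 0.15 to 3.31 ± 0.17. The pairs of methionine, threonine and tryptophan went the other way, with shifts of -0.88, -0.83 and -0.78, and the alanine pair overlapped. The 2 histidine genes lie head to head on opposite strands with 3 bases between their starts, and in MCD livers Hars rose (log2 fold change 0.33) while Hars2 fell by 0.57. Hars minus Hars2 was -0.23 ± 0.21 in CD and 0.67 ± 0.15 in MCD.

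At 4 weeks of age few of these genes were called in STAM livers. In all, 0 of the 20 cytosolic enzymes were called with limma and 0 with limma voom on recovered reads, while 1 had an unadjusted p under 0.05 (Aars, log2 fold change 0.22, limma adjusted p = 0.193). Among all genes tested 9.80% were called in either direction. Fold changes of the cytosolic enzymes ran from -0.13 (Yars) to 0.22 (Aars) with a median of 0.04. Gars stood at 5.07, 5.25, 5.29, 5.48 and 5.55 log2 CPM in Ctrl and 5.47, 5.43, 5.44, 5.65 and 5.56 in STAM, overlapping ranges (log2 fold change 0.18, SE 0.0924, limma adjusted p = 0.248, interval -0.01 to 0.39). Of the 16 mitochondrial enzymes 1 was called and 3 had an unadjusted p under 0.05, all lower (Aars2, Fars2 and Wars2). Wars2 read 3.83, 3.6, 3.89, 3.45 and 3.82 in Ctrl and 3.4, 3.25, 3.31, 3.37 and 3.36 in STAM, each STAM liver below each Ctrl liver (log2 fold change -0.38, SE 0.0999, limma adjusted p = 0.0304). This call was lost on leaving out Ctrl replicate 3 or 5 or any 1 of the 5 STAM livers (limma adjusted p 0.0553 to 0.0726) and with total-read scaling (-0.30, limma adjusted p = 0.0722). Without Ctrl replicate 1, which stood apart, 0 cytosolic enzymes were called with a median of 0.01, and Wars2 was still the 1 mitochondrial enzyme called (log2 fold change -0.35, limma adjusted p = 0.0454). The ratio of summed CPM was 3.18 to 3.45 in Ctrl and 3.29 to 3.77 in STAM, and 2 of the 13 pairs lay above Ctrl without overlap, those of alanine (shift 0.42) and tryptophan (0.57). Ctrl replicate 1 was the lowest Ctrl liver in both, which enlarges these shifts. It read 2.89 for alanine and 0.06 for tryptophan, where the other Ctrl livers read 2.98 to 3.46 and 0.68 to 0.99. The share of all genes without overlap at 4 weeks is not given here.

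**Figure D2:**
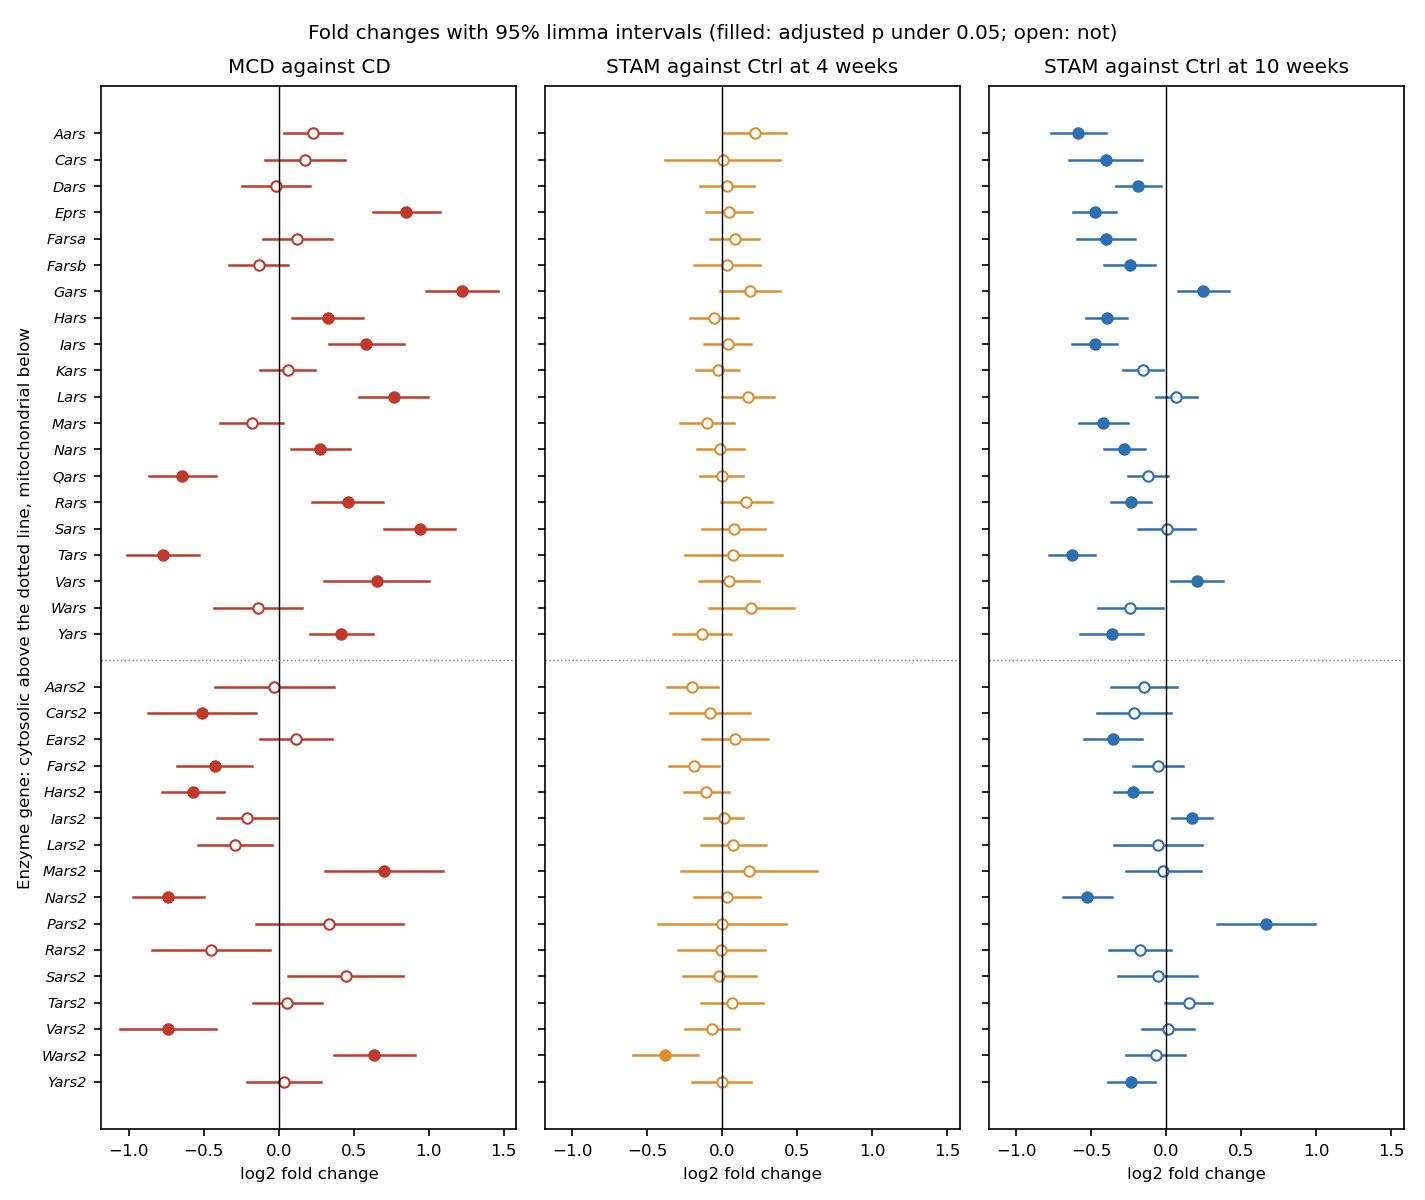
Log2 fold change of each enzyme with its 95% limma interval, by comparison; filled points had an adjusted p under 0.05. The MCD panel spans -0.77 (Tars) to 1.22 (Gars), the panel of 4 weeks has 1 filled point (Wars2), and at 10 weeks 13 of 20 cytosolic points are filled and below 0.

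At 10 weeks the STAM comparison had many calls, mostly downward, and with total-read scaling most of them were lost. In STAM livers 2 of the 20 cytosolic enzymes rose (Gars and Vars), 13 fell and 5 were not called, where 25.3% of all genes tested rose and 22.5% fell, and the median was -0.26 against 0.05 for all genes. With total reads 4 were called higher and 3 lower, with a median of 0.03 where that of all genes was 0.33, and with quantile normalization 2 were higher and 9 lower. The distance from the list's median to that of all genes was -0.31 with the authors' scaling, -0.30 with total reads and -0.17 with quantile normalization. Falls that held under all 3 scalings were those of Tars, Aars and Eprs. Tars stood at 6.75, 7.0, 6.9, 6.75 and 6.81 log2 CPM in Ctrl and 6.17, 6.32, 6.26, 6.28 and 6.05 in STAM, with no overlap and 1.54-fold lower (log2 fold change -0.63, SE 0.0708, limma adjusted p = 1.65e-05, n = 5 and 5). Aars, the alanine enzyme, read 8.2, 7.98, 8.02, 7.89 and 7.92 in Ctrl and 7.63, 7.31, 7.48, 7.39 and 7.28 in STAM, all below Ctrl and 1.5-fold lower (log2 fold change -0.58, SE 0.0846, limma adjusted p = 0.000112). Eprs read 7.47, 7.31, 7.3, 7.47 and 7.36 in Ctrl and 6.91, 6.85, 6.96, 6.79 and 7.0 in STAM, again apart (log2 fold change -0.48, SE 0.0654, limma adjusted p = 7.45e-05).

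Iars fell by 0.48, Mars by 0.42, Cars by 0.40, Farsa by 0.40, Hars by 0.40 and Yars by 0.36 on the log2 scale (limma adjusted p 0.000118, 0.000559, 0.0103, 0.00263, 0.000246 and 0.00833). All 6 were called with quantile normalization and none with total reads. Nars (-0.28), Farsb (-0.24), Rars (-0.23) and Dars (-0.19) were lower with the authors' scaling alone, and with total reads their signs turned (0.01, 0.05, 0.06 and 0.11, none called). Dars was not called without any 1 of 8 of the 10 livers (limma adjusted p 0.0538 to 0.109; the exceptions were Ctrl replicate 3 and STAM replicate 2), nor Farsb without Ctrl replicate 4 (0.0557). Farsa and Farsb encode the 2 subunits of the phenylalanine enzyme. Gars rose: it read 5.27, 5.18, 5.19, 5.23 and 5.16 in Ctrl and 5.23, 5.53, 5.44, 5.38 and 5.71 in STAM, with STAM replicate 1 inside the range of Ctrl and the other 4 above it (log2 fold change 0.25, SE 0.0797, limma adjusted p = 0.0199). Vars rose as well (log2 fold change 0.21, SE 0.0811, limma adjusted p = 0.0488), but its groups overlapped and the call was lost without Ctrl replicates 2, 3 or 4 or STAM replicates 1, 2, 4 or 5 (0.0521 to 0.11). Both rises held under all 3 scalings. Kars (-0.15), Lars (0.07), Qars (-0.12), Sars (0.01) and Wars (-0.24) were not called, and with total reads Lars and Sars were called higher (0.36 and 0.30) and Kars, Qars and Wars turned to 0.14, 0.17 and 0.05, not called. Without overlap, 0 cytosolic enzymes lay above Ctrl and 9 below, where 16.8% of all genes tested were above and 16.3% below.

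**Figure D3:**
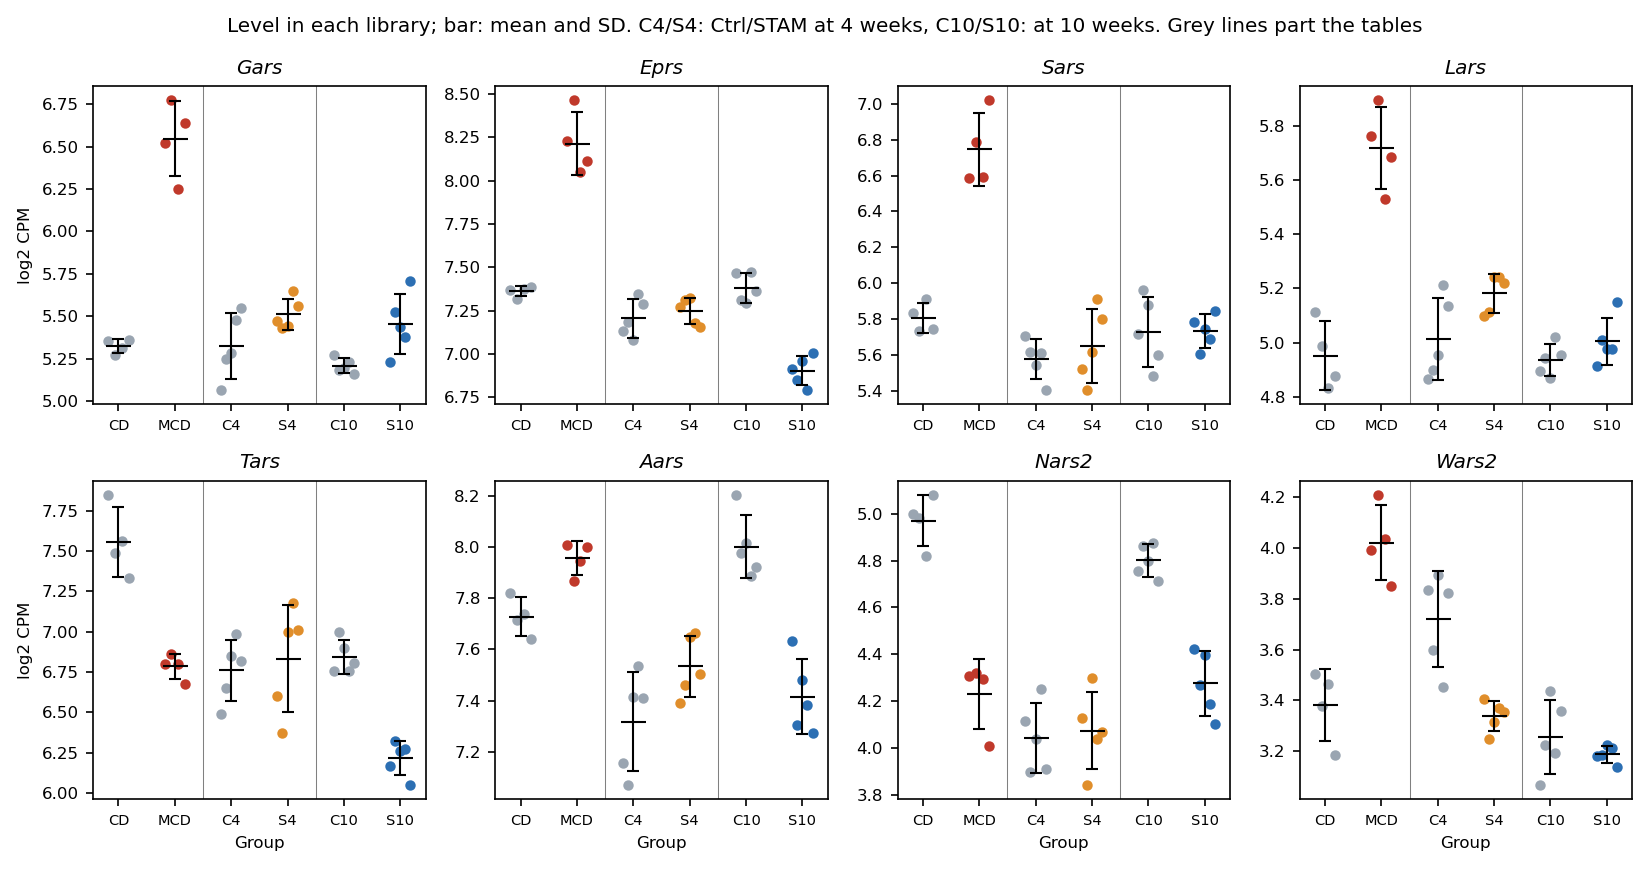
Log2 CPM in each library for 6 cytosolic and 2 mitochondrial enzymes, with the mean and SD of each group; C and S stand for Ctrl and STAM at the age given, and tables were scaled separately, so only neighbours between grey lines compare. The MCD points of Gars, Eprs, Sars and Lars sit above all CD points, and the STAM points of Tars, Aars, Eprs and Nars2 at 10 weeks sit below all of their Ctrl points.

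Among the 16 mitochondrial enzymes at 10 weeks, 2 rose (Iars2 and Pars2), 4 fell (Ears2, Hars2, Nars2 and Yars2) and 10 were not called, where 25.3% of all genes tested rose and 22.5% fell. Their median was -0.06, which was 0.23 with total reads and -0.20 with quantile normalization. Nars2 stood at 4.76, 4.86, 4.8, 4.88 and 4.71 log2 CPM in Ctrl and 4.42, 4.27, 4.4, 4.19 and 4.1 in STAM, with no overlap (log2 fold change -0.52, SE 0.0764, limma adjusted p = 0.000116), and this fall held under all 3 scalings. Pars2, the proline enzyme of mitochondria and one of the lowest in level, read 1.67, 1.5, 1.85, 1.72 and 2.06 in Ctrl and 2.26, 2.81, 2.5, 2.35 and 2.21 in STAM, all above Ctrl and 1.59-fold higher (log2 fold change 0.67, SE 0.153, limma adjusted p = 0.00297). With quantile normalization Pars2 was at 0.30 and not called. Iars2 read 6.14, 6.37, 6.33, 6.31 and 6.41 in Ctrl and 6.55, 6.47, 6.46, 6.44 and 6.52 in STAM (log2 fold change 0.17, SE 0.0623, limma adjusted p = 0.0329). The groups of Iars2 were apart and its rise held under all 3 scalings, yet it was not called without Ctrl replicates 1, 3 or 4 or STAM replicates 1, 2 or 5 (0.0534 to 0.0735). Ears2 fell by 0.35, Yars2 by 0.23 and Hars2 by 0.22 (limma adjusted p 0.00542, 0.0186 and 0.00755), and with total reads Hars2 and Yars2 turned to 0.07 and 0.06 and Ears2 to -0.06, none called. Without overlap, 2 mitochondrial enzymes lay above Ctrl and 4 below, where the shares of all genes tested were 16.8% and 16.3%. Without Ctrl replicate 1, which stood apart, 2 cytosolic enzymes were called higher and 12 lower (Dars was lost), and 2 mitochondrial ones higher and 4 lower, with Tars2 called (log2 fold change 0.19, limma adjusted p = 0.0424) and Iars2 not (0.13, 0.0654). The ratio of summed cytosolic to mitochondrial CPM ranged from 3.29 to 3.76 in Ctrl livers and from 2.77 to 3.11 in STAM livers, without overlap. Of the 13 pairs, 4 shifted downward without overlap (threonine -0.78, isoleucine -0.65, methionine -0.40 and histidine -0.18) and 9 overlapped. Single genes lay above or below without overlap at the shares of 16.8% and 16.3% given above, and no share of other pairs was computed.

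**Figure D4:**
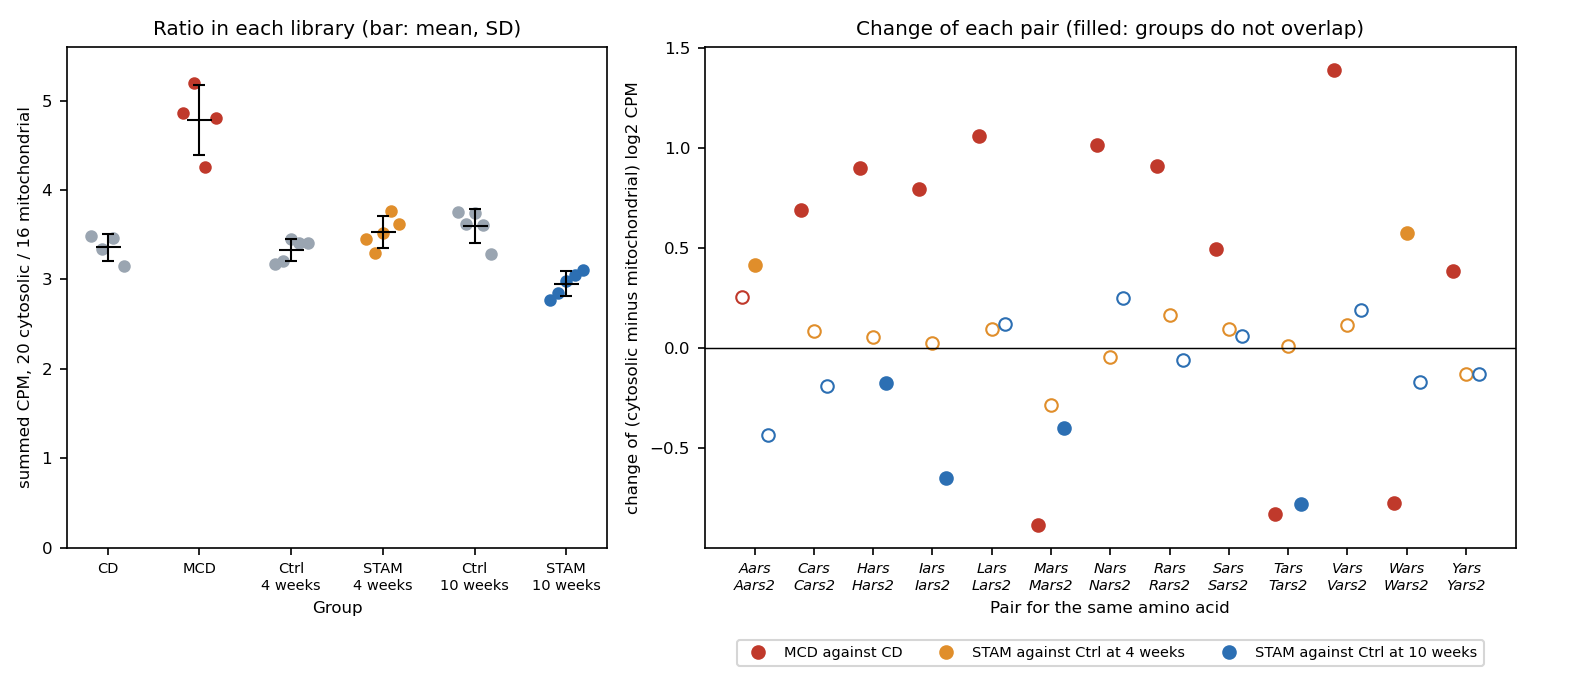
Left, the ratio of the summed CPM of the 20 cytosolic to that of the 16 mitochondrial enzymes in each library, with mean and SD; right, the change of the log2 difference between the enzymes of a pair for 13 amino acids, filled where the groups do not overlap. The CD ratios (3.15 to 3.48) lie below every MCD ratio (4.26 to 5.20), and the Ctrl ratios at 10 weeks (3.29 to 3.76) above every STAM ratio (2.77 to 3.11).

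Whether the STAM effect differed between ages was tested directly. The effect at 10 weeks was lower than that at 4 weeks for 8 cytosolic enzymes (Aars, Eprs, Farsa, Hars, Iars, Nars, Rars and Tars) and higher for 0, where 11.2% of all genes tested were lower and 8.89% higher; limma voom also gave 8 and 0, and 0 had a positive difference with an unadjusted p under 0.05. With total reads 2 were lower and 1 higher. Aars had the largest difference (log2 fold change -0.80, SE 0.13, limma adjusted p = 0.00032), from 0.22 at 4 weeks to -0.58 at 10 weeks. Tars (log2 fold change -0.70, SE 0.17, limma adjusted p = 0.00644) went from 0.07 to -0.63. Among mitochondrial enzymes the difference was called for Ears2 and Nars2, both lower (-0.44 and -0.56, limma adjusted p = 0.0273 and 0.00374). The difference of Nars was not called after leaving out any 1 of 16 of the 20 livers (0.0524 to 0.09). Without Ctrl replicate 1 at 4 weeks, 7 cytosolic enzymes had a lower effect at 10 weeks, without Nars, and 2 mitochondrial ones, and Pars2 had a called higher one (0.82, limma adjusted p = 0.011). Without Ctrl replicate 1 at 10 weeks 8 cytosolic enzymes were lower, with Mars called (-0.35, limma adjusted p = 0.0354) in place of Nars. Gars did not differ detectably between ages (difference 0.06, interval -0.19 to 0.32, limma adjusted p = 0.757).

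The MCD effect and the STAM effect at 10 weeks share no control livers and were compared in 1 fit. The MCD effect was higher for 12 cytosolic enzymes and lower for 1, where 12.9% of all genes tested were higher and 15.0% lower, and total-read scaling gave 14 and 1. The largest differences were those of Eprs (1.33, SE 0.113, limma adjusted p = 9.64e-08), Iars (1.06, SE 0.132, limma adjusted p = 7.17e-06) and Gars (0.97, SE 0.134, limma adjusted p = 2.41e-05). Sars, Aars, Yars, Hars, Lars, Rars, Cars, Nars and Farsa followed with differences of 0.53 to 0.93, and Qars was lower (-0.52). With the authors' scaling 6 cytosolic enzymes were called higher in MCD and lower in STAM at 10 weeks (Eprs, Hars, Iars, Nars, Rars and Yars), of which Eprs kept both calls under all 3 scalings. Gars and Vars were called higher in both models, and Tars was called lower in both. These calls held under all 3 scalings. The share of all genes called in both models, in the same or in opposite directions, is not given here. Whether these joint calls are more frequent than among other genes therefore cannot be told. Tars did not differ detectably between the models (difference -0.15, interval -0.41 to 0.12). Of the mitochondrial enzymes Ears2, Mars2 and Wars2 had a higher and Fars2, Hars2, Iars2 and Vars2 a lower effect in MCD, 5 and 1 with total reads. Nars2 fell in both models under all 3 scalings, with a difference of -0.21 (interval -0.47 to 0.05, limma adjusted p = 0.223).

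**Figure D5:**
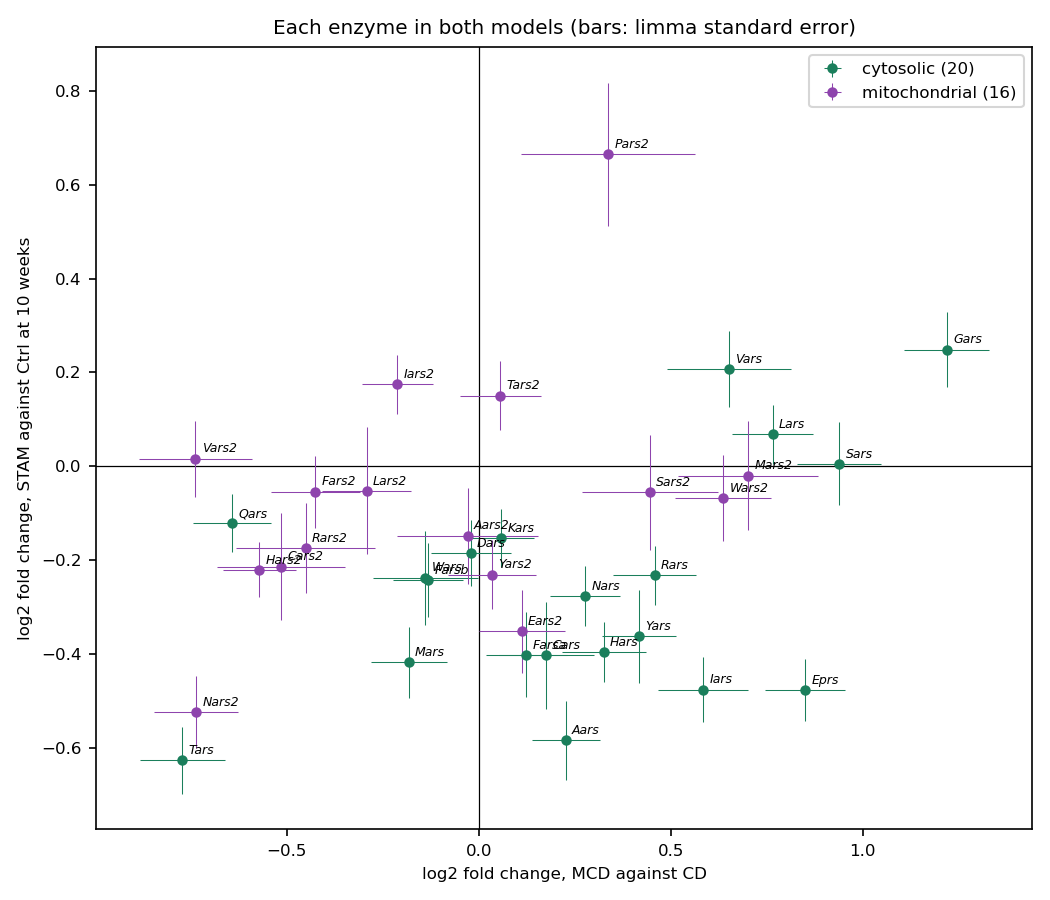
Each point is an enzyme, with its log2 fold change for MCD on the horizontal and for STAM at 10 weeks on the vertical axis, bars being limma standard errors. Gars and Vars lie to the upper right, Tars and Nars2 to the lower left, and Eprs (0.85 and -0.48) and Iars (0.58 and -0.48) to the lower right.

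The cytosolic enzymes can be divided into 13 commonly described as ATF4 targets and 7 others (Dars, Farsa, Farsb, Hars, Kars, Qars and Rars). In MCD livers 8 of the 13 rose and 1 fell (Tars), with a median of 0.42, and 2 of the 7 rose and 1 fell, with a median of 0.06. Of all genes tested 22.6% rose and 20.1% fell, with a median of 0.07. With total reads the counts were 10 and 1 of 13 and 6 and 0 of 7. Of all 15312 genes tested, total reads called 7588 higher and 1222 lower. At 10 weeks of STAM 2 of the 13 rose and 8 fell, and 0 of the 7 rose and 5 fell. Their medians were -0.36 and -0.23. Of all genes tested 25.3% rose and 22.5% fell, with a median of 0.05. With total reads 4 rose and 3 fell of the 13, and 0 of the 7 were called. Of all genes tested, 7019 were then called higher and 953 lower. Of the 5 enzymes with the motif printed above, Gars, Iars and Yars rose in MCD, Tars fell and Aars was not called with the authors' scaling. In STAM at 10 weeks Gars rose and Aars, Iars, Tars and Yars fell, of which Aars and Tars held under all 3 scalings. Among the 8 enzymes of the multisynthetase complex (Dars, Eprs, Iars, Kars, Lars, Mars, Qars and Rars), 4 rose and 1 fell in MCD (6 and 0 with total reads). In STAM at 10 weeks 0 rose and 5 fell (1 and 1 with total reads). The all-gene shares and counts are those given earlier in this paragraph.

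Other genes of cytosolic tRNA charging form scaffolds, export tRNA, correct mischarged tRNA or, as Tarsl2 does, encode another threonyl-tRNA synthetase beside Tars. Of 8 such genes 2 rose and 1 fell in MCD (4 and 0 with total reads), where 22.6% and 20.1% of all genes tested did: Xpot, which exports tRNA from the nucleus (log2 fold change 0.64, limma adjusted p = 0.00042), the scaffold gene Eef1e1 (0.57, 0.0162) and Tarsl2 (-0.41, 0.01 and not called with total reads; Tars was at -0.77). The rises of Xpot and Eef1e1 held under all 3 scalings. Xpot read 7.06, 6.9, 6.95 and 6.75 log2 CPM in CD and 7.45, 7.78, 7.41 and 7.58 in MCD, without overlap. The scaffold genes Aimp1 (-0.17) and Aimp2 (0.28) were not called. At 10 weeks of STAM 4 of the 8 fell (Eef1e1 -0.41, Tarsl2 -0.28, Aimp2 -0.27 and Aarsd1 -0.25), where 22.5% of all genes tested fell. None of these 4 was called with total reads, which gave 3 of the 8 higher and 0 lower, and Aimp2, Tarsl2 and Aarsd1 turned to 0.02, 0.01 and 0.04. Without Ctrl replicate 1 at 10 weeks Aimp2 was not called (limma adjusted p = 0.0795), and without Ctrl replicate 1 at 4 weeks Xpot was called higher at 4 weeks (0.25, limma adjusted p = 0.0347). All 5 cytosolic elongation factors fell in STAM at 10 weeks (Eef1b2 -0.43, Eef1a1 -0.39), 0 with total reads and 2 with quantile normalization, and 0 of the 5 were called in MCD (3 higher with total reads). Among 5 other genes of mitochondrial tRNA charging 0 were called in MCD (2 higher with total reads) and 1 rose in STAM at 10 weeks (4 with total reads), where 25.3% of all genes rose. It was Qrsl1 (0.38), uncalled with quantile normalization and without Ctrl replicate 1 (limma adjusted p = 0.0695). Of 9 mitochondrial translation factors 3 fell in MCD (Mtrf1l -0.60, Gfm2 -0.42 and Mtif2 -0.42), with the last 2 at 0.01 and all 3 uncalled with total reads, which called 6 of the 9 higher and 0 lower.

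Genes upstream of the synthetases and other ATF4 targets were read from lists chosen with earlier results known. Atf4 messenger RNA was not called in any comparison with the authors' scaling (log2 fold change 0.29, -0.25 and -0.25 in MCD, STAM at 4 weeks and STAM at 10 weeks), though in MCD it was called higher with total reads (0.71) and quantile normalization (0.55). Eif2ak4, the kinase Gcn2, was not called with the authors' scaling either (-0.26, -0.25 and 0.09), while in MCD quantile normalization called it lower (-0.32; 0.17 and uncalled with total reads) and at 10 weeks total reads called it higher (0.38). Without Ctrl replicate 1 at 10 weeks Atf4 was called lower there (-0.30, limma adjusted p = 0.0404). Of 17 eIF2 kinases and regulators of the ATF4 pathway 10 rose and 1 fell in MCD (13 and 1 with total reads), where 22.6% and 20.1% of all genes tested did. Of these 17, 3 rose at 4 weeks, where 9.80% of all genes were called in either direction, and 8 rose and 1 fell at 10 weeks (13 and 0 with total reads), where 25.3% and 22.5% of all genes did. Trib3, a pseudokinase induced by ATF4, had group means of 1.63 and 6.62 log2 CPM in CD and MCD (log2 fold change 4.99, SE 0.283, limma adjusted p = 7.36e-07) and of 3.34 and 4.75 in Ctrl and STAM at 10 weeks (log2 fold change 1.41, SE 0.164, limma adjusted p = 2.96e-05). Asns rose in MCD from a mean of 0.46 to 5.12 log2 CPM (log2 fold change 4.66, SE 0.277, limma adjusted p = 2.62e-07) and at 4 weeks of STAM (1.53, limma adjusted p = 0.0127), and was not called at 10 weeks (0.36; 0.70 and limma adjusted p = 0.0245 without Ctrl replicate 1). Ddit3, encoding the stress factor CHOP, rose in MCD (1.30) and at 4 weeks (0.71) and not at 10 weeks (-0.28). Ddit3 overlaps Mars on the opposite strand by 68 bases, and no source used here says whether counting used strand. Farsb, Yars and Iars2 also overlap a gene of the opposite strand. Among 8 genes of amino acid synthesis and one-carbon metabolism 5 rose and 1 fell in MCD (7 and 0 with total reads), and 2 rose and 1 fell at 10 weeks (4 and 0). Among 8 amino acid carriers 5 rose in MCD and 3 at 10 weeks, and 7 in each with total reads. With the authors' scaling 22.6% of all genes rose and 20.1% fell in MCD, and 25.3% and 22.5% did at 10 weeks. For every total-read count of this paragraph, the all-gene counts were 7588 higher in MCD and 7019 at 10 weeks, of 15312. Psat1, of serine synthesis, rose in both (log2 fold change 5.67 and 2.49), as did Slc7a1, a carrier of arginine and lysine, whose rise at 10 weeks (0.88, against 2.90 in MCD) was not called with quantile normalization.

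Wars, which interferon is known to induce, was not called in any of the 3 comparisons under any of the 3 scalings (log2 fold change -0.14, 0.19 and -0.24).

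Summed levels of cell type markers differed between these groups. In bulk liver, fewer cells of a type and less RNA per cell cannot be told apart. The 6 hepatocyte markers (Alb, Apoa1, Ttr, Hnf4a, Cps1 and Tat), high in every group, summed to 70353 to 93056 CPM in CD and 63539 to 84466 in MCD, to 123778 to 144842 in Ctrl and 101103 to 116492 in STAM at 4 weeks, and to 71724 to 96664 in Ctrl and 39728 to 54962 in STAM at 10 weeks. In MCD 4 of the 6 fell (log2 fold change -1.11 for Apoa1, -0.97 for Ttr, -0.72 for Cps1 and -0.43 for Hnf4a) though the sums overlap. With total reads 3 were lower and 2 higher, and with quantile normalization 0 were lower and 1 higher. Alb went the other way as a share of total reads, at 4.19 to 6.23% in CD and 6.58 to 8.36% in MCD. At 10 weeks 5 of the 6 fell (2 with total reads and 1 with quantile normalization). The 6 macrophage markers summed to 165 to 265 CPM in CD and 336 to 679 in MCD, to 192 to 235 in Ctrl and 283 to 365 in STAM at 4 weeks, and to 195 to 253 in Ctrl and 283 to 384 in STAM at 10 weeks. Lymphocyte markers summed to 17.2 to 28.7 CPM in CD and 28.6 to 41.0 in MCD, to 18.4 to 21.1 and 20.6 to 30.7 in Ctrl and STAM at 4 weeks, and to 13.9 to 20.2 and 23.2 to 33.0 in Ctrl and STAM at 10 weeks. Stellate cell markers summed to 296 to 334 CPM in CD and 433 to 588 in MCD, to 296 to 365 and 279 to 349 in Ctrl and STAM at 4 weeks, and to 225 to 305 and 299.6 to 547 at 10 weeks. At 10 weeks 5 of these 6 rose (Col1a1, a collagen gene, by 2.89 on the log2 scale), while Lrat, of retinoid storage, fell by 0.80 (limma adjusted p = 0.000819) under all 3 scalings. Markers of cell division summed to 5.99 to 23.4 CPM in CD and 26.2 to 61.6 in MCD, to 6.82 to 215 and 68.7 to 128 in Ctrl and STAM at 4 weeks, with the low end in Ctrl replicate 1 and the group median at 139, and to 4.32 to 9.52 and 23.2 to 41.6 in Ctrl and STAM at 10 weeks. Duct cell markers summed to 5.72 to 12.8 and 11.8 to 17 CPM in CD and MCD, to 3.15 to 8.6 and 9.72 to 11.8 in Ctrl and STAM at 4 weeks, and to 2.77 to 6.08 and 7.05 to 21.8 at 10 weeks. Every marker of these lists had reads in each group. Their part in the synthetase results was not tested.

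The authors' deposited table of fold changes and adjusted p-values gave counts close to these at an adjusted p under 0.05. For MCD the authors' deposited table had 8 cytosolic enzymes higher and 2 lower and 2 mitochondrial ones higher and 5 lower. For STAM at 10 weeks the authors' deposited table had 1 and 11 cytosolic and 1 and 3 mitochondrial ones, and at 4 weeks 0 of either kind.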

How the data were processed

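Liver RNA was sequenced in 28 libraries, and 1 table was deposited for each of the 3 comparisons. Alignment used STAR 2.4.2a and the build mm10, per the submitters' processing notes; no source used here names the read counter or says whether counting used strand. The deposited values are log2 CPM, which the authors scaled by an effective library size within each table with a prior of 0.25 reads, as recovered from the values. Each table also holds the authors' log2 fold change, p-value and adjusted p-value, and, per the file headers, the counted length of each gene, used here for CPM per kilobase. Whole reads were recovered for 100.0% of the values within a tolerance of 0.05 reads. Libraries held 16.2 to 25.9 M reads, 3 reads correspond to at most 0.200 CPM, and intervals cover the spread between samples only. No replicate pair agreed within sampling noise (lowest chi-square per degree of freedom 11.9).

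Genes above the 25th percentile of mean level were fitted with limma 3.58.1 in R 4.3.3 (mean-variance trend, robust, statmod 1.5.0), 1 fit for each table and joint fits for differences between effects; tests are two-sided with Benjamini-Hochberg adjustment over all genes tested, and the threshold is 0.05. The fit was tested on simulated data. Alternatives were total-read scaling, quantile normalization, other filters and prior, limma voom on the recovered reads, no trend, a replicate block and leaving out each library. All 36 synthetases are named with values or by range; of every other list the genes named were taken from the 4 with the largest called change, and Atf4, Eif2ak4, Ddit3, Asns, Trib3, Xpot, Aimp1, Aimp2 and Eef1e1 always; some items that this rule covers are not reported here. Members and lists were chosen with earlier results of these data known. Promoter sequences are those of RefSeq (GRCm38.p6).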

Additional observations from a re-analysis of the deposited data

Results flagged for a closer look

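Of 216 sets of values (36 enzymes in 6 groups), 9 held a library that stood apart from the others of its group by Dixon's criterion at the 95% level, where chance alone gives about 1 in 20. They fell in 9 different libraries. The lowest of their groups were Farsa at 3.88 log2 CPM in CD replicate 2, Kars at 5.61 in Ctrl replicate 3 at 4 weeks, Mars at 5.56 in STAM replicate 2 at 10 weeks, Mars2 at 2.08 in STAM replicate 1 at 10 weeks, Nars2 at 4.01 in MCD replicate 4 and Tars2 at 4.62 in STAM replicate 4 at 4 weeks. The highest were Ears2 at 4.71 in Ctrl replicate 1 at 10 weeks, Hars2 at 4.90 in MCD replicate 1 and Yars2 at 4.12 in Ctrl replicate 4 at 4 weeks.

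The STAM effect differed between 10 and 4 weeks of age by the limma test of the difference for 10 enzymes, all with a lower effect at 10 weeks. The differences were -0.80 for Aars, -0.70 for Tars, -0.56 for Nars2, -0.52 for Eprs, -0.51 for Iars, -0.48 for Farsa, -0.44 for Ears2, -0.39 for Rars, -0.34 for Hars and -0.26 for Nars (log2). The livers of different ages stand in separately scaled tables.

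The MCD effect differed from the STAM effect at 10 weeks for 20 enzymes. It was higher by 1.33 for Eprs, 1.06 for Iars, 0.97 for Gars, 0.93 for Sars, 0.81 for Aars, 0.78 for Yars, 0.72 for Hars, 0.70 for Lars, 0.69 for Rars, 0.58 for Cars, 0.55 for Nars and 0.53 for Farsa in the cytosol. Among the mitochondrial enzymes it was higher by 0.72 for Mars2, 0.71 for Wars2 and 0.46 for Ears2. The difference was -0.75 for Vars2, -0.52 for Qars, -0.39 for Iars2, -0.37 for Fars2 and -0.35 for Hars2. Fars2 was not called in 9 of the 18 fits that left out 1 liver (limma adjusted p 0.0521 to 0.076). Age, diet, streptozotocin treatment and table differ together between the models and cannot be told apart.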

How the results depend on the processing

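Scaling by total reads changed most counts, and the cause was not tested beyond the shift of all genes given above. With it, 16 cytosolic enzymes were called higher and 1 lower in MCD with a median log2 fold change of 0.68, and 7 mitochondrial ones higher and 1 lower with a median of 0.30. At 4 weeks of STAM the medians were 0.12 and 0.07 and 0 mitochondrial enzymes were called lower (Wars2 was lost). At 10 weeks 4 cytosolic enzymes were higher and 3 lower with a median of 0.03, and 5 mitochondrial ones higher and 1 lower with a median of 0.23. The difference between ages was higher for 1 and lower for 2 cytosolic and higher for 5 and lower for 1 mitochondrial enzymes, and that between models higher for 5 and lower for 1 mitochondrial enzymes. Among named genes called with the authors' scaling or with total reads, signs turned with total reads in MCD for Dars (0.40), Farsb (0.29), Tarsl2 (0.01), Gfm2 (0.01) and Mtif2 (0.01). At 10 weeks of STAM they turned for Dars (0.11), Farsb (0.05), Nars (0.01), Rars (0.06), Fars2 (0.24), Hars2 (0.07), Yars2 (0.06), Aimp1 (0.23), Aimp2 (0.02), Tarsl2 (0.01), Aarsd1 (0.04), Eef2 (0.04) and Mtif3 (0.03). Other signs turned without a call under either scaling, such as those of Mars and Wars in MCD.

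Quantile normalization gave a cytosolic median of 0.45 in MCD, 1 mitochondrial enzyme higher there and a cytosolic minus mitochondrial median of 0.53. At 10 weeks of STAM it gave medians of -0.20 for both compartments, a difference between them of 0.00, and Eef2 at 0.06. The difference between ages was then higher for 1 mitochondrial enzyme. At 10 weeks 1 cytosolic enzyme was called higher with no low-value filter, and 1 without the trend and robust options (Vars was lost in both). A prior of 2 reads and limma voom on the recovered reads kept every count of called synthetases in the 3 comparisons and both differences.

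Equal replicate numbers did not pair the samples: same-numbered deviations correlated at -0.122 to 0.008 in the diet study and at -0.118 to -0.001 in STAM, and no library correlated best with its own number. With the replicate block, 8 cytosolic enzymes were higher in MCD, 12 were lower at 10 weeks, 0 mitochondrial enzymes were lower at 4 weeks and 1 was higher at 10 weeks. Under the same replicate block the difference between ages was lower for 1 and that between models for 2 mitochondrial enzymes.

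Leaving out 1 liver at a time, the mitochondrial median in MCD ran from -0.18 to -0.10, and 0 to 1 mitochondrial enzymes were lower at 4 weeks. At 10 weeks 1 to 2 cytosolic enzymes were higher with a cytosolic median of -0.30 to -0.25, and 1 to 2 mitochondrial ones were higher. The difference between ages was higher for 0 to 1 and lower for 1 to 3 mitochondrial enzymes. Depth limits genes with few reads, such as Pars2, with 42 in 1 library.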
